A study of Mus musculus with 2 samples.

Results

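The genes described here are 10 regulators and receptors of the striatal lineage, namely the dopamine receptor genes Drd1 and Drd2, the adenosine receptor gene Adora2a, the phosphatase inhibitor gene Ppp1r1b, and the transcription factor genes Foxp1, Foxp2, Ebf1, Isl1, Six3 and Meis2. They were picked by symbol out of the 32285 genes listed, with earlier results of these data known, and all 10 were found. They were read in single-cell RNA sequencing of the mouse cerebral cortex at embryonic day (E) 16.5. The samples were 2 libraries of 1 group, wild-type (WT) control embryos of the EomesDot line, named replicates 1 and 2 here in accession order. The labels give the genotype only as WT, and they do not state whether the WT embryos carried a transgene or whether a library held 1 embryo or several. With a single group, every comparison was made between cell types of the same 2 libraries, so n = 2 throughout. The p-values rest only on how far differences between types varied between these libraries. That spread was estimated over all cell types in a single fit and shared across genes, not from the compared types alone.

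Projection neurons of the striatum are GABAergic cells born in the lateral ganglionic eminence (LGE). They divide into a direct-pathway class, which comes to use the dopamine D1 receptor, and an indirect-pathway class, which comes to use the dopamine D2 receptor and the adenosine receptor encoded by Adora2a. Both receptor systems act on cyclic AMP, and DARPP-32, the product of Ppp1r1b, relays this signal by inhibiting protein phosphatase 1. Isl1 and Ebf1 are known for their roles in direct-pathway neurons and Six3 for its role in indirect-pathway neurons. Foxp1, Foxp2 and Meis2 are expressed more widely in the striatum, and Foxp1 and Foxp2 also mark layers of the cortex.

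Replicate 1 held 9049 barcodes and 46398156 unique molecular identifiers (UMIs, 1 per captured molecule), and replicate 2 held 13556 barcodes and 64324236 UMIs. Cells with 1500 to 60000 UMIs and under 10% mitochondrial UMIs numbered 5966 and 10247, with medians of 5706 and 4938 UMIs. The libraries shared 40 barcodes, 21 of them among the cells kept. Cells were gated on markers other than the 10 genes, as GABAergic (Gad1 and Gad2; 1571 and 2409 cells) or excitatory (Neurod2 and Neurod6; 2650 and 4511 cells), and then by type, giving 19 types. A further 188 and 376 cells held at least 2 UMIs of both marker pairs and were left out of the types. The striatal gate (markers that include Rarb, Zfp503, Ikzf1, Tac1, Penk, Pdyn and Rxrg) held 225 and 317 cells, or 3.77% and 3.09% of the cells kept, although the tissue is labelled cortex. Within it, 26 and 23 cells were direct-like (Tac1, Pdyn, Eya1), 60 and 89 were indirect-like (Penk, Gpr6, Sp9) and 139 and 205 were undetermined. The striatal markers stood at 2618 and 2299 CPM in direct-like and 1325 and 1055 CPM in indirect-like cells (CPM, UMIs of the gene or panel per 1000000 UMIs of the type; values are for replicates 1 and 2 in that order throughout). They stood at 17.9 and 11.0 CPM in layer 6-gated cells. Hemoglobin RNA, made in red blood cells, was found in all 3 striatal types, at 893 and 4639 CPM in the undetermined cells. Its part in the results was not tested.

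**Figure D1:**
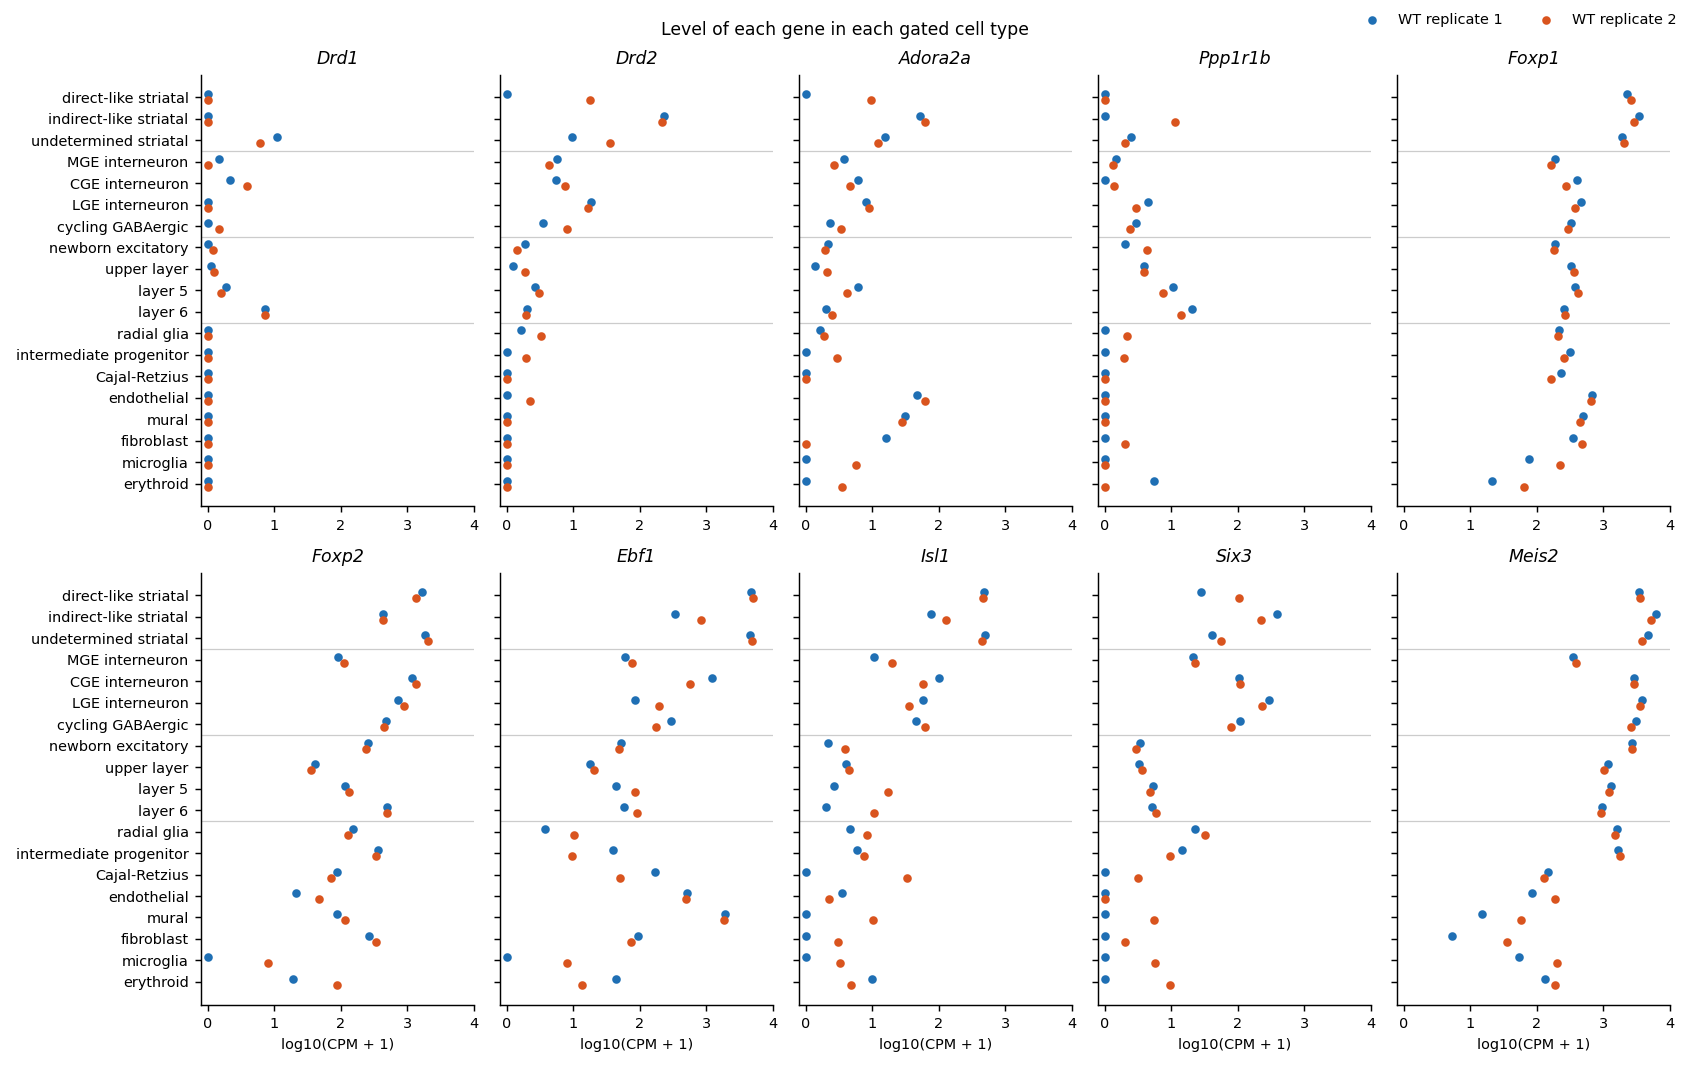
Level of each of the 10 genes, as log10(CPM + 1) on the horizontal axis, in the 19 gated cell types on the vertical axis. Blue points are WT replicate 1 and orange points WT replicate 2. Foxp1, Foxp2, Ebf1, Isl1 and Meis2 were high in at least 2 of the 3 striatal types, Drd1 was low in every type, and Ebf1 and Adora2a were also high in mural and endothelial cells.

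The gene pair Ebf1 and Isl1 and the pair Six3 and Drd2 were found in different striatal cells, as described below, and the sequences before their start sites are shown because such sequence is where transcription factors bind in general. Each is 190 bases long, from 250 to 61 bases before a RefSeq start site (GRCm38.p6, 5′ to 3′ on the strand of the gene). Capitals mark the MEIS motif TGACAG.

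Ebf1: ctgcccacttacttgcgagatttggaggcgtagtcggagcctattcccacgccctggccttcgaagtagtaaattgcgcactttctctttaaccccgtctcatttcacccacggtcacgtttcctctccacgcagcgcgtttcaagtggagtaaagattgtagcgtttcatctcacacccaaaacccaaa

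Isl1: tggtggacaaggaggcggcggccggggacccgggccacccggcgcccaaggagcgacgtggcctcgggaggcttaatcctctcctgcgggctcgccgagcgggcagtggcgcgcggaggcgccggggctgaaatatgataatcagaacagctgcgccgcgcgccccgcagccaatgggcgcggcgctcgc

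Six3: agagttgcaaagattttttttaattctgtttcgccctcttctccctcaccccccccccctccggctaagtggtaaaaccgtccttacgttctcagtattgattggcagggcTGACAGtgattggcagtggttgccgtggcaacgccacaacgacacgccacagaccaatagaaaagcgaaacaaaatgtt

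Drd2: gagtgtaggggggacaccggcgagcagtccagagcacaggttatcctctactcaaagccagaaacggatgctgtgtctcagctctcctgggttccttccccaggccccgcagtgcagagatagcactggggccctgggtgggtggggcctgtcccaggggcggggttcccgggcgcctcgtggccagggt

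The windows lie at chr11:44619978-44620167 (+), chr13:116309749-116309938 (-), chr17:85620584-85620773 (+) and chr9:49340153-49340342 (+). They were searched on both strands for TGACAG (MEIS factors), TGTTTAC (FOX factors), TAATTA (homeodomain factors) and a palindrome of TCCC and GGGA with 2 bases between them (EBF factors), and no matches overlapped. The Six3 window held TGACAG 1 time and the others held no match, while 12.5%, 2.49%, 4.02% and 0.578% of all 32851 windows of this length held the respective motifs. The Isl1 window was 73.7% G and C with 27 CpG, against 66.3% and 8 for Drd2, 51.1% and 13 for Ebf1, and 49.5% and 9 for Six3. The genes themselves span chr11:44618100-45008096 (Ebf1), chr13:116298270-116309688 (Isl1), chr17:85613608-85626191 (Six3) and chr9:49340360-49408177 (Drd2) in the same build, so that the Ebf1 and Six3 windows lie inside the span of their gene, before a start site that is not its outermost. No stretch of 30 bases of any of these windows was found in the gene's annotated transcripts.

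Averaged over the 3 striatal types, Foxp1, Ebf1, Isl1, Meis2, Foxp2 and Six3 were each higher than in the interneuron-gated and in the excitatory-gated cells compared. With Drd2, 7 of the 10 genes were higher than in interneurons of the medial and caudal ganglionic eminence gates (MGE and CGE) and 3 were not called, where 8.99% of all 15563 genes tested were called, 3.18% as higher and 5.81% as lower. The same 7 genes were higher than in the upper-layer, layer 5 and layer 6 gates of the excitatory cells, where 15.0% of all genes were called, 5.17% as higher and 9.84% as lower. A comparison gave each of its types equal weight on the log scale, so a fold change can differ from the ratio of the summed levels. LGE-gated interneurons were in neither comparison, and not every striatal type was higher. Six3 averaged 259 CPM in LGE-gated and 105 CPM in CGE-gated cells, against 64.4 and 47.1 CPM in direct-like and undetermined cells. Foxp2 averaged 431 CPM in indirect-like cells, below CGE-gated (1255 CPM) and LGE-gated (809 CPM) cells. The median log2 fold change of the 10 genes was 2.08 against interneurons and 2.99 against excitatory cells, and that of all genes was -0.22 and -0.25.

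Foxp1, a forkhead repressor, stood at 2352 and 2366 CPM in the striatal gate, where 87.1% and 88.3% of cells held a UMI. It stood at 186 and 160.3 CPM in MGE-gated and 399.8 and 275 CPM in CGE-gated interneurons. The striatal values were above every other gated type, and the log2 fold change was 3.32 ± 0.12 against interneurons (SE; 3.12 and 3.53 within each library; edgeR adjusted p = 3.93e-24) and 2.83 ± 0.10 against excitatory cells (edgeR adjusted p = 9.33e-25).

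Ebf1, an early B-cell factor of the helix-loop-helix type, gave 3481 and 3666 CPM in the striatal gate, yet only 50.2% and 48.9% of these cells held a UMI of it. MGE-gated cells gave 58.0 and 75.2 CPM and CGE-gated cells 1199 and 563 CPM. The log2 fold change was 3.26 ± 0.21 against interneurons (2.82 and 3.67 by library; edgeR adjusted p = 1.26e-15) and 5.69 ± 0.20 against excitatory cells, whose gate gave 37.6 and 43.2 CPM (edgeR adjusted p = 2.67e-24).

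Isl1, a LIM-homeodomain factor, stood at 383 and 350.2 CPM in the striatal gate with 55.6% and 56.5% of cells positive. In the excitatory gate it stood at 1.91 and 5.12 CPM. Its log2 fold change was 3.03 ± 0.24 against interneurons (edgeR adjusted p = 6.01e-13) and 5.59 ± 0.28 against excitatory cells (7.09 and 5.13 by library; edgeR adjusted p = 2.80e-19), with the larger excitatory difference in replicate 1, where the excitatory level was lower.

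Meis2, a TALE-homeodomain factor, was the most widely detected of the 10 genes, with UMIs in 75.3% and 76.2% of all cells kept. It stood at 4932 and 4185 CPM in the striatal gate and 1763 and 1597 CPM in the excitatory gate. MGE-gated interneurons were low at 344 and 391 CPM, unlike CGE-gated and LGE-gated interneurons at 2924 and 2883 CPM and 3861 and 3580.2 CPM. The log2 fold change of striatal cells was 2.03 ± 0.16 against the interneurons (edgeR adjusted p = 8.62e-13) and 1.92 ± 0.14 against excitatory cells (edgeR adjusted p = 1.94e-14).

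Foxp2, the paralogue of Foxp1, stood at 1465 and 1495 CPM in the striatal gate, at 1169 and 1340.3 CPM in CGE-gated and at 89.1 and 111 CPM in MGE-gated cells. The CGE values were below the striatal values and the MGE values far lower, and the log2 fold change against both interneuron types was 1.56 ± 0.11 (edgeR adjusted p = 6.77e-14). Six3, a SIX-homeodomain factor, stood at 127 and 107 CPM in the striatal gate, 103 and 108 CPM in CGE-gated and 20.4 and 22.0 CPM in MGE-gated cells, so the striatal and CGE levels overlapped and the MGE level was the lower. Its log2 fold change of 0.93 ± 0.24 against interneurons was the smallest of the genes called (edgeR adjusted p = 0.00773) and missed the threshold when types needed at least 3 marker UMIs (edgeR adjusted p = 0.0503). Against excitatory cells, with 2.77 and 2.76 CPM, it was 4.65 ± 0.38 (edgeR adjusted p = 1.36e-12).

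Of the receptors, Drd2 was the one found at an appreciable level in the striatal gate. It gave 74 and 139 UMIs there, or 64.5 and 87.2 CPM, with 16.9% and 20.8% of cells positive, against 4.55 and 4.82 CPM in the MGE and CGE gates together and 0.717 and 0.842 CPM in the excitatory gate. Its pooled UMIs gave a ratio of 16.5 (95% exact interval 11.9 to 23.2) to interneurons, where intervals cover counting error only. With the striatal types weighted equally, its log2 fold change was 2.81 ± 0.78 against interneurons (edgeR adjusted p = 0.0153) and 4.87 ± 0.97 against excitatory cells (edgeR adjusted p = 2.82e-04). Cells without a type also held it, and 47.6% and 38.8% of all Drd2 UMIs lay in cells that no type took. Adora2a gave 25 and 41 UMIs in the striatal gate, or 21.8 and 25.7 CPM, against 3.79 and 2.58 CPM in the interneurons. The ratio of its pooled UMIs was 7.83 (95% exact interval 5.02 to 12.5) against interneurons and 16.8 (95% exact interval 11.3 to 25.1) against excitatory cells. In the fit over libraries neither difference passed (edgeR adjusted p = 0.199 and 0.0575), while DESeq2 called both (adjusted p = 0.00364 and 1.70e-06).

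Drd1, the gene of the D1 receptor, was nearly undetected. All cells kept held 33 and 46 Drd1 UMIs in 30 and 42 cells. The direct-like cells held 0 of them in both libraries, which allows a share of positive cells of up to 11.5% and 13.04%, and the indirect-like cells also held 0. The undetermined striatal cells held 7 and 5 UMIs. Pooled over libraries, the ratio of Drd1 in the striatal gate was 3.88 (95% exact interval 1.57 to 9.72) to interneurons and 4.16 (95% exact interval 1.96 to 8.27) to excitatory cells, most of which were of the upper layers. By library the interneurons stood at 0.759 and 1.38 CPM against 6.10 and 3.14 CPM in the striatal gate, so the first ratio was larger in replicate 1. With types weighted equally, the striatal gate stood at 3.33 and 1.67 CPM against 2.37 and 2.34 CPM in the excitatory cells. The summed striatal level of 6.10 and 3.14 CPM was not above the 6.14 and 6.22 CPM of layer 6. The fitted changes gave no usable value because of the types at 0, and neither passed (edgeR adjusted p = 0.810 and 0.707). Ppp1r1b was also scarce, with 1 and 6 UMIs in the striatal gate, 0.871 and 3.77 CPM, below the 4.49 and 4.08 CPM of the excitatory gate. The pooled ratio of striatal to layer-gated excitatory cells was 0.468 (95% exact interval 0.186 to 0.986). With types weighted equally, the levels were 0.476 and 3.82 CPM against 10.6 and 7.39 CPM, so the gap was wider in replicate 1, with its 1 striatal UMI. The fit did not call the difference (edgeR adjusted p = 0.0857). It was called as lower without the filter on low counts and when the compared types were fitted alone (edgeR adjusted p = 0.0104 and 0.0487).

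Within the striatal gate the genes divided by pathway. Ebf1, Isl1 and Foxp2 were higher in direct-like cells, and Drd2 and Six3 were higher in indirect-like cells. These 5 of 10 genes were called where 1.12% of all genes were, 0.501% as higher and 0.623% as lower. The median log2 fold change of the 8 genes with UMIs in both types was -0.66, against -0.06 for all genes. The panels that split the cells held none of the 10 genes. Direct-like cells were few, however, and CGE markers also differed, at 722 and 818 CPM in direct-like against 87.9 and 73.1 CPM in indirect-like cells. CGE-gated cells themselves held Foxp2, Ebf1 and Isl1, and the part of those markers in these differences was not tested.

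Ebf1 stood at 4679.5 and 5109.5 CPM in direct-like and 342 and 821 CPM in indirect-like cells. The libraries did not overlap, and the log2 fold change was 2.88 ± 0.32 (3.71 and 2.48 by library; edgeR adjusted p = 8.73e-08). Isl1 stood at 471 and 459.9 CPM against 74.4 and 127 CPM, a change of 2.04 ± 0.40 (2.60 and 1.69 by library; edgeR adjusted p = 0.00209). Foxp2 stood at 1690.2 and 1354 CPM against 436 and 426 CPM, a change of 1.73 ± 0.20 (1.89 and 1.51 by library; edgeR adjusted p = 3.02e-07). All 3 had their undetermined cells near or above the direct-like level, with 4547 and 4861 CPM for Ebf1, 495 and 444 CPM for Isl1 and 1851 and 2025 CPM for Foxp2.

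Drd2 gave 0 and 2 UMIs in direct-like and 68 and 102 in indirect-like cells, or 0 and 17.0 CPM against 229.9 and 213 CPM. A Drd2 UMI was found in 53.3% and 53.9% of indirect-like cells. The pooled ratio of indirect-like to direct-like cells was 29.4 (95% exact interval 8.03 to 245), and edgeR gave an adjusted p of 2.96e-05. Six3 stood at 26.5 and 102 CPM in direct-like and 385 and 219 CPM in indirect-like cells, and the change of -2.39 ± 0.41 on the log2 scale had a size that differed between libraries (-3.92 and -1.26; edgeR adjusted p = 2.90e-04). Adora2a gave 0 and 1 against 15 and 29 UMIs, a pooled indirect-like to direct-like ratio of 15.2 (95% exact interval 2.60 to 616) that did not pass (edgeR adjusted p = 0.0912). Foxp1 and Meis2 had log2 fold changes of -0.50 ± 0.17 and -0.81 ± 0.24 and did not pass (edgeR adjusted p = 0.213 and 0.111). The levels were 2234 and 2639.9 CPM against 3479 and 2899 CPM, and 3459.9 and 3509 CPM against 6157 and 5170.0 CPM, so that neither gene's libraries overlapped between the types. Meis2 was called in the fit of the 2 types alone, without the low-count filter and with doublets removed (edgeR adjusted p = 0.00585, 1.73e-07 and 0.0266).

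**Figure D2:**
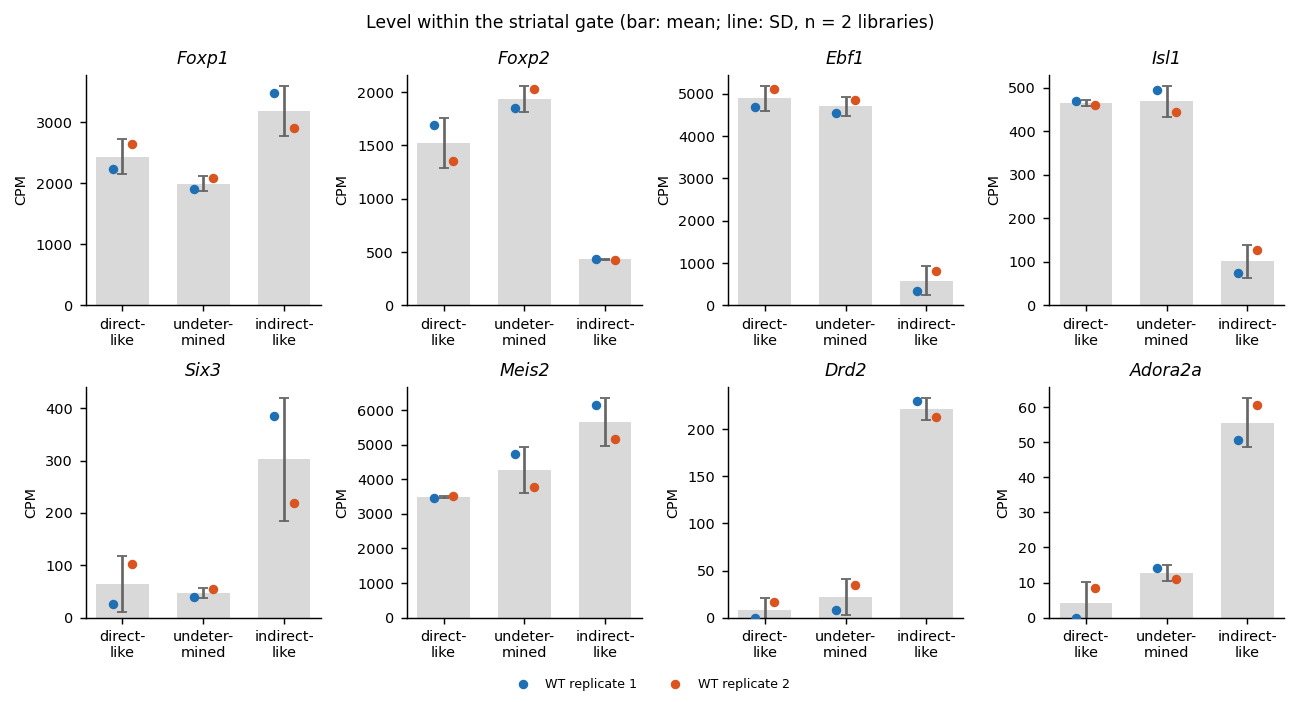
CPM of 8 genes in direct-like, undetermined and indirect-like cells of the striatal gate. Bars are means of 2 libraries with SD as lines, and points are the libraries (blue, replicate 1; orange, replicate 2). Foxp2, Ebf1 and Isl1 fell from direct-like to indirect-like cells and Six3 and Drd2 rose, and for these 5 genes the undetermined cells lay nearer the direct-like than the indirect-like values.

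A like division was seen cell by cell in the same striatal-gated cells, read without the split into direct-like and indirect-like cells, although the striatal gate itself used Tac1, Pdyn and Penk. Among striatal-gated cells, Isl1 was found in 74.3% and 78.1% of Ebf1-positive cells (cells with at least 1 UMI) and in 36.6% and 35.8% of Ebf1-negative cells. Foxp2 was found in 86.7% and 88.4% of Ebf1-positive cells and in 47.3% and 43.2% of the others. Six3 went the opposite way, in 5.31% and 8.39% of Ebf1-positive and 37.5% and 34.0% of Ebf1-negative cells. These are descriptions of cells from 2 libraries, since cells of a library are not replicates.

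Drd2-positive cells, 38 and 66 in number, were the mirror image. Six3 was found in 65.8% and 51.5% of them and in 12.3% and 13.5% of Drd2-negative striatal cells. Isl1 was found in 2.63% and 4.55% against 66.3% and 70.1%, and Ebf1 in 2.63% and 10.6% against 59.9% and 59.0%. Adora2a, the partner receptor of the indirect pathway, was found in 28.9% and 22.7% of Drd2-positive and 5.35% and 5.98% of Drd2-negative cells. Drd1 was found in 0 of 38 and 0 of 66 Drd2-positive cells, which allows shares of up to 7.89% and 4.55%, against 3.21% and 1.59% in the rest, a difference not detectable at this depth. After thinning every cell to 1500 UMIs, Isl1 was found in 47.7% and 52.1% of Ebf1-positive against 23.7% and 21.7% of Ebf1-negative cells, and Six3 in 25.0% and 25.0% of Drd2-positive against 10.2% and 8.65% of Drd2-negative cells. Cells with at least 5 of the 10 genes made up 57.7% and 65.2% of direct-like, 44.6% and 41.5% of undetermined and 30% and 22.5% of indirect-like cells. They made up 6.95% and 4.91% of CGE-gated, 7.89% and 5.73% of cycling GABAergic and 0.287% and 0.207% of upper-layer-gated cells.

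**Figure D3:**
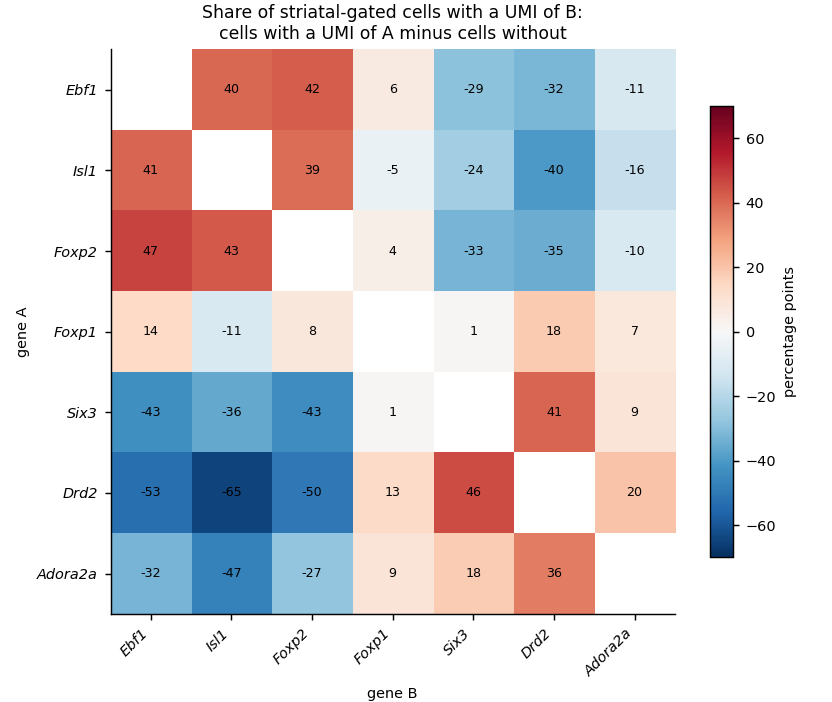
Difference, in percentage points, between the share of striatal-gated cells with a UMI of gene B (horizontal) among cells with a UMI of gene A (vertical) and among cells without one, as the mean of 2 libraries. Pairs within Ebf1, Isl1 and Foxp2 and within Six3, Drd2 and Adora2a are red (found together more often), and pairs across these sets are blue (found together less often).

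The Ebf1 and Isl1 pairing was also present outside the striatal gate. Among CGE-gated interneurons, Isl1 was found in 60.9% and 50.9% of Ebf1-positive cells and in 7.32% and 3.92% of the others. Ebf1 stood at 1199 and 563 CPM in the CGE gate but at 98.1 and 239 CPM in CGE-gated cells with 0 UMIs of the striatal panel, a subset chosen after seeing the levels. Isl1 stood at 99.5 and 56.8 CPM and at 34.8 and 22.0 CPM in that subset. Of 2156 and 1556 Ebf1 UMIs in the CGE gate, 127 and 499 lay in the subset, which held 278 of 374 and 463 of 591 cells. Foxp2, Six3 and Meis2 were closer to the whole gate, with 884 and 1287 CPM, 103 and 105 CPM and 2369.5 and 2602 CPM in the subset.

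In the cortex itself the genes differed by layer. Foxp2, Ebf1 and Ppp1r1b were higher in layer 6-gated than in upper-layer-gated cells and Foxp1 was lower. Drd1 passed the filter on low counts (at least 10 UMIs in 2 sums of a type and library) only through the layer 6 gate, where it was high, so its difference is given as a description. Foxp2, Ebf1, Ppp1r1b and Foxp1 made up, with Drd1, the 5 of 10 genes called, where 13.4% of all genes were, 8.22% as higher and 5.17% as lower. The call of Drd1 adds no support to this count, because the filter admitted it only through the higher group. The median log2 fold change was 0.75 for the 10 genes, Drd1 included, and -0.00 for all genes. Foxp2 showed the clearest order, from 40.3 and 34.8 CPM in upper-layer-gated through 116 and 134 CPM in layer 5-gated to 498 and 489 CPM in layer 6-gated cells, with 253 and 238 CPM in newborn cells (Eomes, Neurod1, Unc5d, Nhlh1). None of these libraries overlapped between gates. The log2 fold change of layer 6 against upper layers was 3.66 ± 0.17 (3.57 and 3.75 by library; edgeR adjusted p = 2.49e-20).

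Drd1 gave its highest cortical level in layer 6. It had 12 and 13 UMIs there, 6.14 and 6.22 CPM, in 4.74% and 4.22% of cells, against 1 and 3 UMIs in 1046 and 1936 upper-layer-gated cells. The layer 6 gate thus held 36.4% and 28.3% of all Drd1 UMIs, and more of them than the striatal gate. The pooled ratio to the upper layers was 33.2 (95% exact interval 11.5 to 131) and DESeq2 did not call the difference (adjusted p = 0.577). Ppp1r1b stood at 19.4 and 12.9 CPM in layer 6-gated and 2.82 and 2.85 CPM in upper-layer-gated cells, with 8.03 ± 2.30 CPM (mean ± SD, n = 2) in layer 5-gated cells. Its log2 fold change of layer 6 against upper layers was 2.44 ± 0.52 (2.70 and 2.10 by library; edgeR adjusted p = 6.84e-04).

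Foxp1 ran the other way. It stood at 328 and 366 CPM in upper-layer-gated, 369 and 421 CPM in layer 5-gated and 255 and 268 CPM in layer 6-gated cells, a change of -0.47 ± 0.16 from upper layers to layer 6 (edgeR adjusted p = 0.0374). That call was lost with the size factors of DESeq2 (edgeR adjusted p = 0.118), without the library as a block (edgeR adjusted p = 0.138) and with stricter type gates (edgeR adjusted p = 0.0611). Ebf1 stood at 16.9 and 19.2 CPM, 42.8 and 82.3 CPM and 57.3 and 89.0 CPM in the same order, and its change to layer 6 of 1.95 ± 0.38 was called (edgeR adjusted p = 1.88e-04) but not when a cell needed at least 3 excitatory marker UMIs and 0 GABAergic ones (edgeR adjusted p = 0.335). Meis2 was highest in newborn cells at 2737 and 2685 CPM and stood at 1160.1 and 1013 CPM in upper layers and 958 and 933 CPM in layer 6 (log2 fold change -0.26 ± 0.23; edgeR adjusted p = 0.554).

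**Figure D4:**
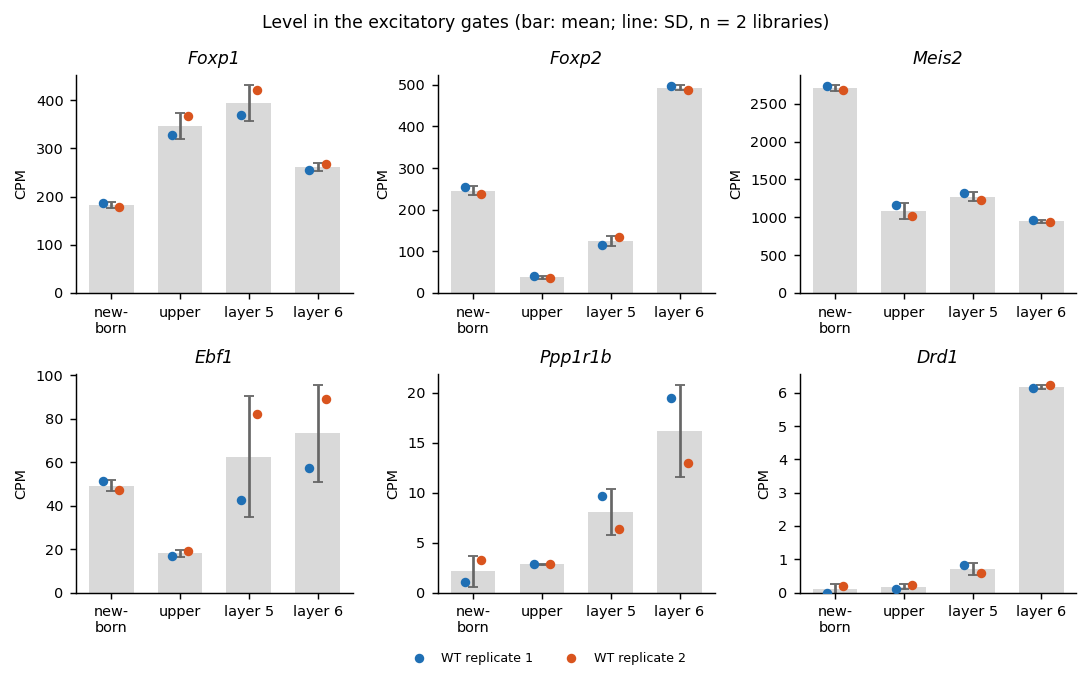
CPM of 6 genes in newborn, upper-layer, layer 5 and layer 6 gates of the excitatory cells. Bars are means of 2 libraries with SD as lines, and points are the libraries. Foxp2, Ppp1r1b and Drd1 were highest in layer 6, Meis2 in newborn cells and Foxp1 in layer 5 and the upper layers.

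Between layer 5-gated and upper-layer-gated cells 4 of 10 genes were higher and 6 were not called, where 7.27% of all genes were called, 4.70% as higher and 2.58% as lower. The median log2 fold change was 1.55 for the 10 genes and -0.01 for all genes. Foxp2 changed by 1.74 ± 0.17 (1.51 and 1.94 by library; edgeR adjusted p = 4.12e-10) and kept its call in every alternative with a test. Ebf1 changed by 1.82 ± 0.36 (edgeR adjusted p = 4.31e-04) and Adora2a, with 12 and 11 against 3 and 14 UMIs, by 2.30 ± 0.63 (3.57 and 1.55 by library; edgeR adjusted p = 0.0154). Neither was called with the stricter excitatory gate (edgeR adjusted p = 0.418 and 0.200). Isl1 rested on 1 library. It gave 4 and 55 UMIs in layer 5-gated and 24 and 45 in upper-layer-gated cells, and its change of 1.62 ± 0.50 (edgeR adjusted p = 0.0392) was -0.80 and 2.22 within replicates 1 and 2. It was not called with stricter GABAergic and excitatory gates (edgeR adjusted p = 0.975), with doublets removed (0.0668) or without the library as a block (0.0584).

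Among interneurons, Six3 was higher and Foxp2 and Ebf1 were lower in LGE-gated cells (Etv1, Pax6, Tshz1) than in CGE-gated cells. These 3 of 10 were called where 0.713% of all genes were, 0.218% as higher and 0.495% as lower, and the median log2 fold change of the 9 genes with UMIs in both types was 0.28, against -0.10 for all genes. Six3 stood at 291 and 228 CPM in LGE-gated, 103 and 108 CPM in CGE-gated and 20.4 and 22.0 CPM in MGE-gated cells, without overlap, and its LGE against CGE change was 1.19 ± 0.20 (1.43 and 1.01 by library; edgeR adjusted p = 5.13e-04). Its LGE level was close to that of indirect-like striatal cells, where the libraries overlapped. Foxp2 stood at 714 and 903 CPM in LGE-gated cells, a change of -0.69 ± 0.16 from the CGE gate (edgeR adjusted p = 0.0220; 0.151 without the library as a block). Ebf1 stood at 84.0 and 191 CPM, a change of -2.60 ± 0.38 that differed widely between libraries (-3.90 and -1.63; edgeR adjusted p = 6.48e-05). With interneurons limited to cells with 0 striatal-panel UMIs, the Ebf1 difference was -0.94 and no longer called (edgeR adjusted p = 0.662), and Foxp1 became called as higher in LGE-gated cells (1.06; edgeR adjusted p = 0.00248). DESeq2 called only Ebf1 of the 10 genes in this comparison.

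Cycling GABAergic cells (190 and 314), which were gated on genes of the cell cycle, had less of 6 of the 10 genes than striatal-gated cells, where 26.6% of all genes were called, 15.8% as higher and 10.7% as lower. This gate was applied before the MGE, CGE, LGE and striatal panels, so it can hold cycling cells of each. A striatal-panel UMI was found in 18.9% and 15.9% of its cells, and the part of lineage in the differences was not tested. The median log2 fold change was -1.84 for the 10 genes and 0.21 for all genes. Foxp1 stood at 326 and 296 CPM in cycling cells (log2 fold change -3.02 ± 0.15; edgeR adjusted p = 5.51e-19). Ebf1 stood at 292 and 177 CPM (-3.40 ± 0.28, with -2.72 and -3.98 by library; edgeR adjusted p = 4.44e-13) and Isl1 at 44.9 and 60.7 CPM (-2.44 ± 0.26; edgeR adjusted p = 7.92e-10). Drd2 gave 4 and 15 UMIs (-2.77 ± 0.80; edgeR adjusted p = 0.00783). Foxp2 and Meis2 differed less, by -1.25 ± 0.14 and -0.61 ± 0.20, and 92.6% and 95.2% of cycling cells held a Meis2 UMI (edgeR adjusted p = 1.14e-09 and 0.0163). DESeq2 did not call Meis2 here (adjusted p = 0.0597). Six3 stood at 107 and 79.1 CPM in cycling and 127 and 107 CPM in striatal-gated cells, and its log2 difference, with the striatal types weighted equally, had opposite signs in the 2 libraries (0.53 and -0.46) and was not called. Radial glia (Hes1, Hes5, Sox2, Slc1a3, Pax6) held Meis2 at 1632 and 1503 CPM and Foxp1 at 212 and 207 CPM, but Ebf1 and Isl1 at only 2.74 and 9.24 CPM and 3.65 and 7.21 CPM.

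Cells of the vessels held some of the genes at high levels. Ebf1 stood at 1916 and 1819 CPM in mural cells (Rgs5, Pdgfrb, Kcnj8, Vtn) and 519 and 498 CPM in endothelial cells, with 94.9% and 95.2% and 89.7% and 84.0% of cells positive. Adora2a stood at 45.6 and 61.8 CPM in endothelial and 30.5 and 27.2 CPM in mural cells, and the endothelial values overlapped those of indirect-like striatal cells, 50.7 and 60.6 CPM. Endothelial cells also held Foxp1 at 663 and 658 CPM, the highest level outside the striatal gate. By contrast, few UMIs of Isl1, Six3 and Drd2 were found in these cells. Isl1 gave 1 and 1 UMIs in endothelial and 0 and 4 in mural cells (0 and 9.05 CPM in the latter). Six3 gave 0 UMIs in endothelial and 0 and 2 in mural cells, and Drd2 gave 0 and 1 in endothelial and 0 in mural cells. Microglia held 0 and 3 UMIs of Ebf1 and 0 and 1 of Isl1. Erythroid cells had medians of 2774 and 3108 UMIs, against 4188 and 4663 in the striatal gate. They were gated on at least 100 hemoglobin UMIs, so fewer of their UMIs came from other genes. The scaling factors of their sums were 0.230 and 0.266, against 1.08 and 1.04 for undetermined striatal cells. Shares in erythroid cells can therefore understate the background of the shares above. Of these cells 12.5% and 17.8% held a Meis2 UMI and 3.12% and 7.98% a Foxp1 UMI, while Ebf1 and Isl1 were in 2.34% and 3.29% and in 2.34% and 0.939%, and Drd2 was in 0 of 128 and 0 of 213 cells, which allows shares of up to 2.34% and 1.41%. Drd1 gave 0 UMIs in erythroid cells. All cells kept held only 33 and 46 Drd1 UMIs, so this 0 cannot serve as a background for the layer 6 shares.

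Ordered by level over the 19 types, the indirect-like gate came first for Drd2, Six3, Foxp1 and Meis2. For Six3 its 2 libraries overlapped those of LGE-gated interneurons. The direct-like gate came first for Ebf1, whose 2 libraries overlapped those of the undetermined gate. Isl1 and Foxp2 were first in the undetermined gate, and Isl1 there overlapped the direct-like gate between libraries. Ppp1r1b came first in layer 6, without overlap with layer 5. Drd1 came first in undetermined striatal cells, where its libraries overlapped those of layer 6, and Adora2a came first in indirect-like cells, where they overlapped those of endothelial cells.

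Across the 19 types, whose points come from the same 2 libraries and differ in depth, Drd2 and Six3 had the highest Pearson correlation of log2(CPM + 1) among the pairs of the 10 genes in both libraries (0.79 and 0.77). Isl1 and Six3 had 0.72 and 0.77, although they were opposed within the striatal gate. Adora2a and Meis2 had -0.23 and 0.11. Among 13351 other genes, the most alike were Htr7 for Drd2 (0.87 and 0.90), Gm45680, Grm4 and Meis1 for Six3 (0.91 and 0.86 for Meis1), Gm12158 and Tshz2 for Ebf1 (0.89 and 0.89 for Gm12158), Syt6 and Tpgs2 for Isl1 (0.83 and 0.82 for Syt6), Gm26644 and Ntsr1 for Ppp1r1b (0.78 and 0.64 for Ntsr1), Slk for Adora2a (0.78 and 0.71) and Xpr1 for Drd1 (0.61 and 0.61). For Foxp1 they were Gm14133, Dclk3 and Tshz2 (0.71 and 0.72 for Tshz2), for Foxp2 they included Zdbf2 and Sgcd (0.78 and 0.73 and 0.83 and 0.72), and for Meis2 they included Kcnk10 (0.91 and 0.88).

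Of 21 other genes of dopamine and adenosine signalling, 18 were tested. In striatal-gated cells 8 were higher and 1 was lower than in interneurons (8.99% of all genes called; median log2 fold change 0.57 over the 17 with UMIs in both, against -0.22 for all genes), and 5 were higher and 4 lower than in excitatory cells (15.0% of all genes called; median 0.10, against -0.25 for all genes). Pde7b, a cyclic AMP phosphodiesterase, was higher than in interneurons by 2.88 ± 0.30 (144 ± 23.9 against 21.3 ± 0.725 CPM, mean ± SD, n = 2; edgeR adjusted p = 8.42e-10) and Arpp21, a cyclic AMP-regulated phosphoprotein, by 2.55 ± 0.15 (edgeR adjusted p = 3.68e-16). Arpp21 was lower than in excitatory cells by contrast (-1.46 ± 0.10; edgeR adjusted p = 9.23e-15), and Ptpn5, which encodes the striatum-enriched phosphatase STEP, was lower than in both (-1.29 ± 0.27 and -1.57 ± 0.25; edgeR adjusted p = 7.36e-04 and 5.56e-06). Rgs2, a regulator of G protein signalling, and Gnal, a G protein subunit, were higher than in excitatory cells (2.67 ± 0.31 and 0.80 ± 0.16; edgeR adjusted p = 7.51e-09 and 3.17e-04). In layer 6, 5 of the 18 were higher than in the upper layers and the others were not called, where 13.4% of all genes were called. The largest changes were those of Pde7b (34.5 ± 3.97 against 2.39 ± 1.29 CPM; 3.66 ± 0.39, with 4.32 and 3.41 by library; edgeR adjusted p = 9.54e-10), Adora1, the A1 receptor gene (2.22 ± 0.45; edgeR adjusted p = 4.35e-04), and Rgs9 (1.75 ± 0.34; edgeR adjusted p = 1.88e-04). Of the 18, edgeR called Ppp3ca alone, a calcineurin subunit, between direct-like and indirect-like cells, where 1.12% of all genes were called (-0.71 ± 0.19, with -0.38 and -1.09 by library; edgeR adjusted p = 0.0486). Cycling cells had 9 lower and 2 higher than striatal-gated cells, where 26.6% of all genes were called. In layer 5 and between LGE-gated and CGE-gated cells edgeR called 0 of the 18, where 7.27% and 0.713% of all genes were called, with 5 and 1 at an unadjusted p under 0.05, and DESeq2 called 0 and 0.

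Of 15 paralogues of the 10 genes, 8 were tested. Against interneurons 2 were higher, 1 lower and 5 not called (8.99% of all genes called; median -0.03 over the 7 with UMIs in both, against -0.22 for all genes). Between the pathways 1 was higher, 1 lower and 6 not called (1.12% of all genes called). Against excitatory cells 2 were higher and 2 lower (15.0% of all genes called), and in layer 6 1 was higher and 7 were not called (13.4% of all genes called). Meis1 stood at 89.9 ± 5.31 against 328 ± 43.7 CPM in direct-like against indirect-like cells (-1.97 ± 0.31; edgeR adjusted p = 5.68e-05), a larger difference than the -0.81 of Meis2. Foxp4 was higher in direct-like cells (136 ± 60.8 against 36.6 ± 10.4 CPM; 1.77 ± 0.46, with 1.01 and 2.45 by library; edgeR adjusted p = 0.0389), in the direction of Foxp2. Both were higher in the striatal gate than in interneurons (Meis1 0.71 ± 0.16, Foxp4 1.60 ± 0.23; edgeR adjusted p = 0.00153 and 1.38e-06). Ebf4 went against Ebf1, lower in striatal-gated than in interneuron-gated cells (2.20 ± 1.18 against 10.3 ± 2.59 CPM; -3.68 ± 0.98, with -3.01 and -4.24 by library; edgeR adjusted p = 0.0104), and Ebf3 was higher in layer 6 than in the upper layers (10.4 ± 9.23 against 1.26 ± 0.297 CPM; 2.88 ± 0.55, with 3.41 and 1.75 by library; edgeR adjusted p = 1.38e-04).

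Of 16 other genes of ganglionic eminence and striatal development, 15 were tested. Against interneurons 5 were higher and 6 lower in the striatal gate, and against excitatory cells 9 were higher and 2 lower, where 8.99% and 15.0% of all genes were called. The median log2 fold changes were -0.44 and 1.95, against -0.22 and -0.25 for all genes. Tshz2 and Zfp521, zinc-finger factors, were higher than in interneurons (2.18 ± 0.13 and 2.12 ± 0.18; edgeR adjusted p = 3.04e-16 and 2.15e-12), and Sp8, Dlx1 and Nr2f1 were lower (-4.59 ± 0.79, -2.57 ± 0.19 and -2.43 ± 0.24; edgeR adjusted p = 4.78e-05, 8.22e-14 and 2.06e-10). The change of Sp8 was -3.68 and -5.43 by library. Zfp521 was also higher in direct-like than in indirect-like cells (509 ± 26.5 against 144 ± 45.2 CPM; 1.63 ± 0.33; edgeR adjusted p = 0.00350), while Bcl11a, a zinc-finger factor, was lower (-0.73 ± 0.17; edgeR adjusted p = 0.0139). Zfp521 and Tshz2 were higher in layer 6 as well (3.55 ± 0.24 and 2.25 ± 0.16; edgeR adjusted p = 3.68e-15 and 3.46e-14), as Foxp2 and Ebf1 were. In cycling cells the precursor factor Gsx2 was higher than in striatal-gated cells (21.7 ± 4.12 against 1.31 ± 0.509 CPM; edgeR adjusted p = 4.85e-05), with 8 genes higher and 5 lower in all, where 26.6% of all genes were called.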

How the data were processed

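Cells were dissociated from the E16.5 cortex of 2 WT libraries and processed with a 10x Genomics 3′ kit. The authors deposited unnormalized counts, that is UMIs by gene for each barcode that passed Cell Ranger (7.0.0 per the submitters' processing notes, 7.1.0 per the file headers; build mm10). Barcodes were kept at 1500 to 60000 UMIs and under 10% mitochondrial UMIs. A GABAergic or excitatory cell had at least 2 UMIs of its own markers and at most 1 of the other; a type needed at least 2 UMIs of its panel and more than of any other, and cycling cells at least 3 cycle UMIs, so type names rest on rebuilt gates. Doublets were kept, except for the cells holding markers of both gates; removing the highest Scrublet scores (scanpy 1.11.5; 0.8% per 1000 barcodes, 432 and 1111 cells) was an alternative, since its automatic threshold marked 0 and 251 cells. The 10 genes, panels and lists were chosen with earlier results of these data known.

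UMIs were summed per type and library (38 sums), filtered on at least 10 counts in 2 sums, scaled by TMM and fitted over all types with the library as a block by edgeR 4.0.16 (quasi-likelihood test, Benjamini-Hochberg over 15563 genes, threshold 0.05). All 10 genes passed the filter, Drd1 only through its 2 layer 6 sums. Types of 1 library share its cells' preparation, which is why the library was the block. A comparison of several types averages their log values. Pooled ratios, used for genes with few UMIs, have exact binomial intervals at 95%, which cover counting error only, as do limits of 3 counts. Genes were named by a rule: all 10 genes; of each list and comparison up to 3 called genes per direction with the largest change, the same sign in both libraries and at least 10 CPM in the higher side; and for each of the 10 the 3 genes most alike over types. Counts of the 3′ end are not compared between genes. The fit was tested on simulated data. Of 2-fold and 4-fold changes it recovered 77% and 98% for striatal against interneuron cells. For direct-like against indirect-like cells it recovered 7% and 43%, so a difference that did not pass there does not show equal levels. RefSeq windows (GRCm38.p6) were matched for 7 of the 10 genes (not for Adora2a, Ppp1r1b and Foxp2), of which 4 genes are shown. Some genes that the rule names are not reported here. DESeq2 1.42.0, other scalings, filters and gates, doublets and single libraries were the alternatives.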

Additional observations from a re-analysis of the deposited data

How the results depend on the processing

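Of the 37 differences called among the 10 genes in 7 comparisons, 26 kept their call and direction in every alternative with a test, and none changed direction there. The 37, and the 5 called in layer 6, include Drd1, which entered the fit only through its layer 6 sums. It is not among the 26. The number of genes called, out of 10, was 5 between direct-like and indirect-like cells and 8 without the low-count filter; 5 in layer 6 and 3 with the DESeq2 test; 4 in layer 5 and 2 with the DESeq2 test, 1 with stricter GABAergic and excitatory gates and 7 with only the types compared; and 3 between LGE-gated and CGE-gated cells and 1 with the DESeq2 test. The other counts stayed within 1.5 times. Without the library as a block, 3 calls were lost (Foxp1 in layer 6, Isl1 in layer 5 and Foxp2 between LGE-gated and CGE-gated cells) and no other changed; the counts were 4, 3 and 2 of 10 in those comparisons. The cause of the other changes was not tested.

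Directions changed in differences that were not called. With the DESeq2 test these were Drd1 in striatal against interneuron (1.37) and excitatory cells (0.86), and Drd1 and Ppp1r1b in cycling cells (-2.74 and -0.46). With stricter GABAergic and excitatory gates they were Drd1 in striatal against interneuron cells (0.82) and in cycling cells (-3.03), and Six3 in layer 5 (-0.049). Six3 in cycling cells changed to 0.10 without the filter, 0.18 with doublets removed and 0.25 with stricter type gates. Between LGE-gated and CGE-gated cells, Foxp1 changed to -0.23 with stricter type gates and Isl1 to 0.62 with 0 striatal-panel UMIs, an alternative chosen after seeing the data. Isl1 in layer 5 was the one called difference that turned in a single library (-0.80 without WT replicate 2 and 2.22 without WT replicate 1).

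Shares of co-detection were lower in thinned cells. Isl1 in Ebf1-positive striatal cells, 76.2% as the mean of 2 libraries (74.3% to 78.1%), was 49.9% at 1500 UMIs and 56.6% when at least 2 UMIs were required. Six3 in Ebf1-positive cells, 6.85% (5.31% to 8.39%), was 1.99% and 1.39%. Six3 in Drd2-positive cells, 58.7% (51.5% to 65.8%), was 25.0% and 36.8%, and Isl1 in Drd2-positive cells, 3.59% (2.63% to 4.55%), was 0% at 1500 UMIs.

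Over all genes, calls rose without the low-count filter from 1399 to 2610 against interneurons, 2336 to 4051 against excitatory cells, 175 to 266 between the pathways and 111 to 393 between LGE-gated and CGE-gated cells. With only the types compared they rose to 266 in the last, from 2083 to 3156 in layer 6 and from 1132 to 2027 in layer 5. With the size factors of DESeq2 the share of calls that were higher moved from 61.4% to 75.2% in layer 6, where the median of all genes shifted by 0.10, and from 44.6% to 57.2% between the pathways. The stricter GABAergic and excitatory gates left 12 and 11 direct-like cells and were not run for the pathway comparison.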

Other observations

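The gates not described above also held some of the genes. Cajal-Retzius cells held Ebf1 at 167 and 49.8 CPM, Foxp1 at 227 and 162 CPM and Meis2 at 148 and 126 CPM. Fibroblasts held Ebf1 at 93.2 and 72.6 CPM, Foxp1 at 353 and 484 CPM and Meis2 at 4.34 and 34.8 CPM. Intermediate progenitors held Meis2 at 1655 and 1783 CPM and Foxp2 at 356 and 333 CPM, while Isl1 stood at 4.95 and 6.59 CPM.

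Foxp2 and Ebf1, found together in the striatal gate, were also read in layer 6-gated cells. Ebf1 was found in 4.41% and 8.38% of Foxp2-positive layer 6 cells and in 13.7% and 12.8% of Foxp2-negative ones, whereas in the striatal gate Ebf1 was found in 64.9% and 66.2% and 20.3% and 16.4%. The difference between the gates was not tested, since each share comes from cells of the same 2 libraries.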
